A study of Mus musculus with 12 samples.

Results

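The GIMAP genes encode GTPases of the immunity-associated protein family, and in the mouse they stand side by side on chromosome 6. The table of expression values was searched for the symbols Gimap1, Gimap3, Gimap4, Gimap5, Gimap6, Gimap7, Gimap8 and Gimap9, and all 8 were found among its 23234 features, with no other symbol that starts with Gimap. All 8 passed the expression filter (mean FPKM of 1 or more across all 12 libraries), which left 10780 features to test. Expression was measured by RNA-seq as FPKM (fragments scaled to transcript length and to the depth of the library) in cells that the study gives as sorted CD24hiTCRβlo CD4+CD8+ double-positive (DP) thymocytes, the stage before positive selection. There were 5 libraries from newborn mice with intact Bcl11b (WT), 3 from newborn Bcl11bm/m mice and 4 from Bcl11bfl/fl:Cd4-Cre mice (cKO), all on the C57BL/6 background. In the Bcl11bm/m genotype both copies of Bcl11b, a zinc-finger transcription factor of T cells, encode a protein without its C-terminal zinc finger in every cell of the animal, and these mice die as neonates. In the cKO genotype a Cd4-driven Cre transgene, which is active from the DP stage, removes loxP-flanked Bcl11b, and the labels give no age for these mice. Sample titles and the series design set the genotypes, because the free-text sample descriptions carry other genotypes (Bcl11bm/m for WT titles, Bcl11b+/+ for the cKO titles). The labels name pre-selection DP thymocytes as the source, whereas the extract protocol entered for every sample describes double-negative (DN) NKT cells. The labels alone do not settle this conflict. Double-negative cells are named for the lack of CD4 and CD8, whereas every library here had at least 281 FPKM of Cd4 and 591 FPKM of Cd8a. These are levels of DP and not of DN cells, and a smaller admixture of other cells was not tested. Markers of DP thymocytes (Cd4, Cd8a, Cd8b1, Rag1, Rag2, Dntt and Ptcra) summed to 4527 to 6166.5 FPKM in WT, 3281 to 3833 in Bcl11bm/m and 3170.4 to 5004 in cKO libraries. Nothing in the labels ties replicates to separate animals, so p-values measure the spread between libraries, which may be technical.

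GIMAP proteins share a GTP-binding domain and are found mainly in lymphocytes, where they bear on survival, on organelle membranes and on the balance of BCL2-family proteins. As T cells develop, several members are known to be low in DP thymocytes and to rise once a cell has been positively selected, Gimap4 and Gimap5 among them. Loss of Gimap5 in rodents leaves few peripheral T cells, and Gimap1 is needed for mature lymphocytes to persist.

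On NCBIM37 (mm9, the build that the submitters' processing notes name), the cluster spans chr6:48597233-48716518, a stretch of 119.3 kb. By GENCODE vM1 the order from low to high coordinates is Gimap8, Gimap9, Gimap4, Gimap6, Gimap1, Gimap7, Gimap5 and Gimap3, all annotated as protein-coding. Gimap6 and Gimap3 lie on the minus strand and the other members on the plus strand. The GENCODE vM1 model of Gimap1 (48668606 to 48702599) runs over Gimap7 (48668620 to 48674635) and into Gimap5 (48696196 to 48704209) on the same strand. Under such models, reads from the shared stretch could be assigned to more than 1 of these genes. The paper names the iGenome annotation for its FPKM, which was not examined here. By RefSeq the stretch before the Gimap1 start site is 48688796 to 48689045, beyond Gimap7, so the overlap with Gimap7 need not apply to these values. To show what the members have in common, the coding bases of the P-loop, the motif that grips the phosphates of GTP, were read from the GENCODE vM1 coding sequences wherever the translation held a G, any 4 residues, then G, K and S or T. The last 3 codons of the motif are in capitals, with the genes called higher in Bcl11bm/m thymocytes (below) first.
Gimap4: ggaaaaactggagcaGGAAAGAGT
Gimap5: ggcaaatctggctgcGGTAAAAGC
Gimap3: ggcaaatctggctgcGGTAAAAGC
Gimap7: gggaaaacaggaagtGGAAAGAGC
Gimap8 P-loop 1: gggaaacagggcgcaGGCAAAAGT
Gimap8 P-loop 2: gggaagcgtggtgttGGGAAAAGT
Gimap8 P-loop 3: ggaaggagtggggctGGAAAGAGT
Gimap6: gggaaaacaggaagcGGGAAAAGT
Gimap9: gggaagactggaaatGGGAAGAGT
Gimap1: ggcaggactgggaccGGCAAGAGT
The 8 genes held 10 such motifs, because Gimap8 (688 codons) carried 3 of them, at codons 55, 291 and 482, whereas each other member carried 1. Gimap3 and Gimap5 had the same 24 bases there. Over their aligned coding sequences these 2 genes were 90.6% identical, and 22.2% of the 50-base words of the Gimap3 transcript also occurred in that of Gimap5 (9.98% in the other direction). For each other pair of members no 36-base word was shared. Values of Gimap3 and Gimap5 can therefore trade reads with each other, and Gimap3 is annotated in GENCODE vM1 by its coding part alone.

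The 250 bases before the start site of Gimap4, Gimap5 and Gimap3, the members that were higher in both mutants, are shown with those of Gimap6, which was not called in either. They come from RefSeq on GRCm38.p6 and were placed on NCBIM37 by an exact and single match. Capitals mark, on either strand, the Runx letters ACCACA or ACCGCA, and AGGAAG, which holds the ETS core GGAA. They also mark TGACCA, which the relative Bcl11a binds.
Gimap4, chr6:48634327-48634576, plus strand: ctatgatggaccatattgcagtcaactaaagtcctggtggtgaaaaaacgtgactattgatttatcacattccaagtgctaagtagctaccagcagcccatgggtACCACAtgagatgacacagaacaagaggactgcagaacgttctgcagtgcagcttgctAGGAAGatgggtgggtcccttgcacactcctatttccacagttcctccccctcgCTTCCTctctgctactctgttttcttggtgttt
Gimap5, chr6:48695946-48696195, plus strand: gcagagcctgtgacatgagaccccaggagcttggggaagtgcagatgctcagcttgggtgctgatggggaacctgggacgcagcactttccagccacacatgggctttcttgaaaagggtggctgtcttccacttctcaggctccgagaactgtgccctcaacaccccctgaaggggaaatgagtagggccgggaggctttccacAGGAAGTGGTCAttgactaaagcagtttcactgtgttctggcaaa
Gimap3, chr6:48720851-48721100, minus strand: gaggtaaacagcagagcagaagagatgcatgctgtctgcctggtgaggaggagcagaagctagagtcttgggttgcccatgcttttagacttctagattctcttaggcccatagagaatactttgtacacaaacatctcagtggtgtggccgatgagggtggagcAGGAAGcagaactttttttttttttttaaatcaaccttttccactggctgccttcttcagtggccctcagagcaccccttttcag
Gimap6, chr6:48658244-48658493, minus strand: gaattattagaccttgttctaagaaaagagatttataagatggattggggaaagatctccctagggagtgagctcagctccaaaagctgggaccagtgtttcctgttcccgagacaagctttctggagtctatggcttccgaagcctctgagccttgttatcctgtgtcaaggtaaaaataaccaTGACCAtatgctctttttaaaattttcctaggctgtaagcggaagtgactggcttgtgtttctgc
Gimap4 had an ACCACA match that began 145 bases before its start site, and AGGAAG matches 87 and 33 bases before it. Gimap5 had AGGAAG at 45 bases and the Bcl11a letters, on the other strand and directly beside it, at 39 bases. Gimap3 had AGGAAG alone, at 85 bases. Gimap6 had neither the Runx letters nor AGGAAG, and the Bcl11a letters stood at 65 bases. The shorter ETS core GGAA was not counted, and the Gimap6 stretch holds it as well (in gcggaagtga). Among 32851 mouse promoter windows of 250 bases, 14.0% held the letters ACCACA and 5.1% the letters ACCGCA. The letters AGGAAG were found in 29.5% of windows and the Bcl11a letters in 11.4%. These letters were not particular to the members that rose. Of the other members not called in either mutant, Gimap1 had ACCACA at 95 and AGGAAG at 197 bases. Gimap9 had ACCGCA at 94 and AGGAAG at 180 bases. Gimap7, called in Bcl11bm/m, had ACCACA at 79 and AGGAAG at 115 bases. Gimap8, also called there, has 2 start sites in RefSeq. No match stood before the first, and AGGAAG, on the other strand, stood at 48 bases before the second. A match of letters is a description of the sequence, and binding was not examined here.

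In WT DP thymocytes the members covered a wide range of levels per length. Gimap6, which encodes a protein linked to autophagy, was highest with 200 ± 31.1 FPKM (SD, n = 5), followed by Gimap9 with 120 ± 15.0 FPKM and Gimap1 with 90.3 ± 15.2 FPKM. Gimap8 had 25.8 ± 6.58 FPKM, Gimap5 8.97 ± 2.89 FPKM and Gimap7 5.36 ± 2.05 FPKM. Gimap3 and Gimap4 were at the bottom with 1.53 ± 0.317 and 1.16 ± 0.298 FPKM. This order held in every WT library, although the ranges over libraries overlapped between Gimap9 and Gimap1, between Gimap5 and Gimap7, and between Gimap3 and Gimap4. Gimap1, Gimap6 and Gimap9 together made up 87.9 to 92.6% of the summed FPKM of the cluster in WT libraries, and Gimap3, Gimap4 and Gimap5 together 2.0 to 3.45%. No member was listed at 0 in any library.

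Depth was estimated from the steps between low FPKM values, since no read numbers were used, at 3990000 to 6950000 fragments in WT, 2730000 to 4230000 in Bcl11bm/m and 10980000 to 45930000 in cKO libraries. Between 63.8 and 71.0% of low values lay within 0.1 fragment of a whole number, against 20% if they were spread evenly. Depth and the length taken off each transcript were chosen from these same values, so this share is no separate check of the estimate. By this estimate a WT library held 7.9 to 11.5 fragments of Gimap4, a Bcl11bm/m library 93.3 to 163 and a cKO library 43.4 to 376, so the WT level of Gimap4 rests on few fragments. Bcl11b itself had 218 ± 72.5 FPKM in WT, 449 ± 28.9 in Bcl11bm/m (adjusted p = 0.0279, limma) and 130 ± 11.1 in cKO thymocytes (adjusted p = 0.0828), values that cover the whole gene and do not show the altered exons. The Bcl11b call was lost without WT replicate 4 or 5 or any of the 3 Bcl11bm/m libraries. Zbtb7b, which encodes Thpok, had 0 to 0.216 FPKM in WT and was higher in both mutants, at 46.0 ± 4.65 FPKM in Bcl11bm/m and 30.7 ± 19.8 FPKM in cKO thymocytes. It passed the expression filter only through the mutants, so these values are a description.

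The first comparison asks how these genes differ when the Bcl11b protein lacks its last zinc finger. In Bcl11bm/m thymocytes Gimap4, Gimap5, Gimap3, Gimap7 and Gimap8 rose, from about 20.2-fold in mean FPKM for Gimap4 to 1.77-fold for Gimap8, and Gimap6, Gimap1 and Gimap9 were not called. Thus 5 of 8 members were called higher (limma on log2(FPKM + 1), Benjamini-Hochberg adjusted over 10780 features, threshold 0.05) and 0 lower. Over all features tested 9.92% were called higher and 7.39% lower. This lean depended on processing, since 1069 higher and 797 lower calls became 1218 and 1257 with quantile normalization and 1631 and 1973 with library weights. The same 5 members had every Bcl11bm/m library above every WT library, which 14.6% of all features had. The median difference of the 8 members was 1.07 on the log2 scale, against -0.02 over all features. In bulk RNA of sorted cells, a larger share of cells that express a gene and more RNA per cell cannot be told apart.

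Gimap4, which in T cells speeds the execution of apoptosis, had 0.705, 1.15, 1.298, 1.52 and 1.14 FPKM in WT replicates 1 to 5. In Bcl11bm/m replicates 1 to 3 it had 37.0, 19.7 and 13.7 FPKM. The lowest mutant library stood far above the highest WT library, and the mutant libraries differed among themselves more than WT libraries did. The difference was 3.40 on the log2(FPKM + 1) scale (standard error 0.29, adjusted p = 1.74e-04, limma), and on that scale the change of so low a gene is understated.

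Gimap5, a survival factor of peripheral T cells, had 7.22, 10.1, 13.3, 8.41 and 5.81 FPKM in WT replicates 1 to 5 and 65.7, 52.4 and 45.3 FPKM in Bcl11bm/m replicates 1 to 3. The groups did not overlap, and the difference was 2.51 on the log2 scale (standard error 0.24, adjusted p = 3.86e-04, limma). Its close relative Gimap3, known in mice for an effect on mitochondrial DNA in blood cells, had 1.22, 1.54, 1.61, 2.01 and 1.27 FPKM in WT and 7.15, 7.73 and 5.23 FPKM in Bcl11bm/m libraries. Again no library overlapped, with a difference of 1.60 (standard error 0.16, adjusted p = 4.29e-04, limma). The ratio of Gimap3 to Gimap5 was 0.121 to 0.239 in WT, 0.109 to 0.1475 in Bcl11bm/m and 0.1875 to 0.3865 in cKO libraries. How far reads of Gimap5 enter the Gimap3 values was not tested, so the 2 calls may not be separate.

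Gimap7, whose protein can stimulate the GTPase activity of its relatives, had 4.58, 4.25, 8.23, 6.64 and 3.09 FPKM in WT and 19.5, 12.5 and 11.5 FPKM in Bcl11bm/m libraries. The difference was 1.31 on the log2 scale (standard error 0.29, adjusted p = 0.0167, limma). Gimap8, the member with 3 P-loops, had 36.8, 24.8, 23.6, 24.7 and 19.1 FPKM in WT and 49.3, 47.2 and 40.6 FPKM in Bcl11bm/m libraries. WT replicate 1 came closest to the mutant libraries, and the difference was 0.83 (standard error 0.19, adjusted p = 0.0201, limma). The calls of these 2 genes were the fragile ones, since without Bcl11bm/m replicate 1 or replicate 2 neither passed (3 members called) and without a filter on low values their adjusted p was 0.0568 and 0.0598. In the exact permutation test of single members (two-sided), each of the 5 had p = 0.0357, the smallest that 3 against 5 libraries can give.

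The members that were already high in WT were not called. Gimap6 had 177, 178, 197, 253 and 198 FPKM in WT and 350, 221 and 196 FPKM in Bcl11bm/m libraries, a difference of 0.32 (95% interval -0.16 to 0.80, adjusted p = 0.360, limma). Only Bcl11bm/m replicate 1 lay above all WT libraries. With quantile normalization, Gimap6 was called (0.45, adjusted p = 0.0388). Gimap1 had 77.6, 82.3, 97.9, 114 and 80.3 FPKM in WT and 127, 90.6 and 87.5 FPKM in Bcl11bm/m libraries, a difference of 0.16 (95% interval -0.24 to 0.56). Gimap9 had 115, 115, 127, 141 and 102 FPKM in WT and 154, 123 and 110 FPKM in Bcl11bm/m libraries, a difference of 0.10 (95% interval -0.24 to 0.44). For both, the groups overlapped, and without Bcl11bm/m replicate 1 the sign turned, to -0.0057 for Gimap1 and -0.033 for Gimap9.

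**Figure D1:**
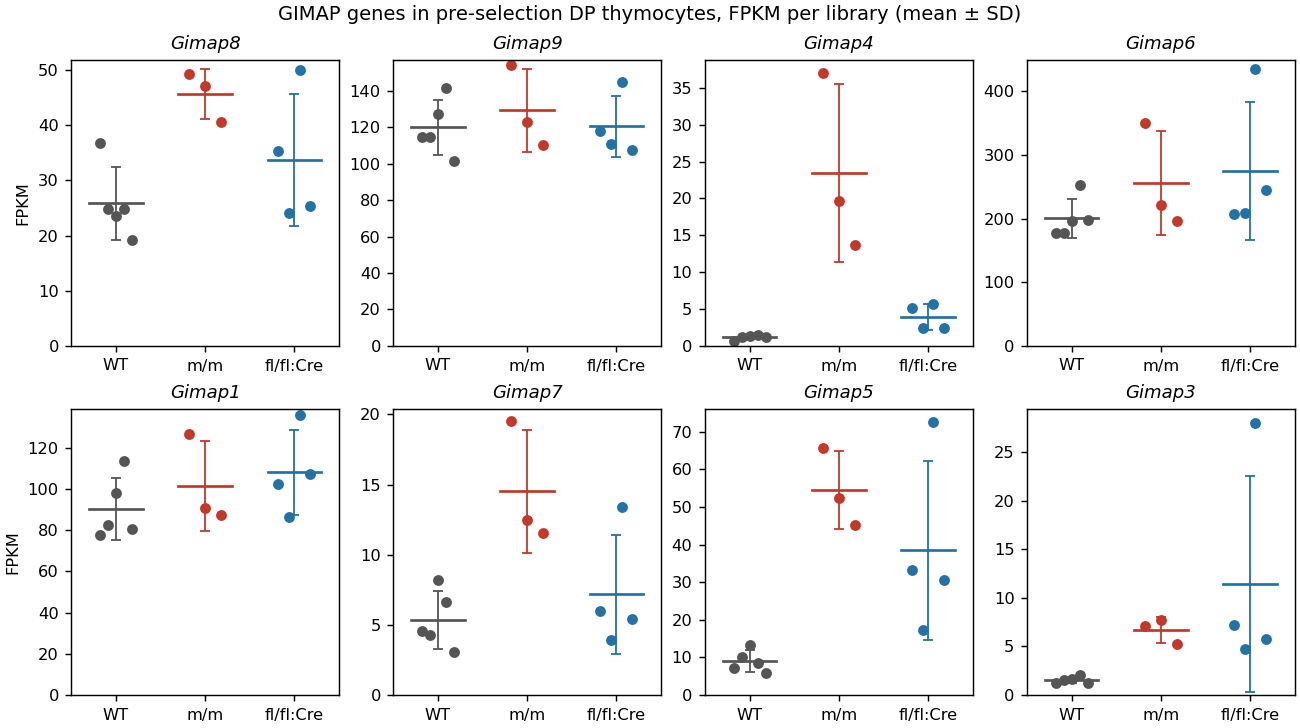
FPKM of each GIMAP gene (y axis, from 0) in each library (points) of WT, Bcl11bm/m (m/m) and cKO (fl/fl:Cre) DP thymocytes, with the mean (line) and SD (bar). Gimap4, Gimap5 and Gimap3 show no overlap between WT and either mutant, whereas Gimap6, Gimap1 and Gimap9 overlap in both comparisons.

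The second comparison asks the same of thymocytes that lose Bcl11b from the DP stage on. In cKO thymocytes Gimap3, Gimap5 and Gimap4 rose, by 7.47-fold, 4.29-fold and 3.35-fold in mean FPKM, and the other 5 members were not called. Without cKO replicate 3 these folds were 3.85, 3.01 and 2.84. Thus 3 of 8 members were called higher and 0 lower. Over all features 4.65% were called higher and 9.86% lower, a lean that depends on scaling, since 501 higher and 1063 lower calls became 834 and 966 with median-ratio scaling. These 3 members also had every cKO library above every WT library, which 5.44% of features had. The median difference of the 8 members was 0.37 on the log2 scale, against -0.09 over all features. This comparison shares its WT libraries with the first, and here genotype cannot be told apart from age, which is unknown, or from depth, which was higher in each cKO library than in any WT library.

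Gimap5 had 33.1, 17.4, 72.6 and 30.6 FPKM in cKO replicates 1 to 4, a difference of 1.85 from WT (standard error 0.36, adjusted p = 0.0102, limma). Gimap3 had 7.22, 4.71, 28.1 and 5.74 FPKM, a difference of 1.96 (standard error 0.41, adjusted p = 0.0136, limma). For both genes replicate 3 stood well above the others, and the lowest library was still above all WT libraries. Gimap4 had 5.09, 2.46, 5.67 and 2.37 FPKM, a difference of 1.12 (standard error 0.24, adjusted p = 0.0139, limma). Each of the 3 had an exact permutation p of 0.0159 (two-sided), the smallest that 4 against 5 libraries allow. The 3 calls held when any single library was left out (largest adjusted p = 0.0497, limma), but without a filter on low values none passed (adjusted p = 0.0515 to 0.0637).

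Gimap7 had 5.95, 3.93, 13.4 and 5.39 FPKM in the cKO libraries, a difference of 0.30 (95% interval -0.43 to 1.02), and Gimap8 had 35.3, 24.2, 50.1 and 25.4 FPKM, a difference of 0.34 (95% interval -0.18 to 0.87). Only replicate 3 exceeded all WT libraries for these 2 genes. Gimap6 had 208, 209, 436 and 246 FPKM, a difference of 0.39 (95% interval -0.11 to 0.90). Gimap1 had 103, 86.5, 136 and 107 FPKM, a difference of 0.25 (95% interval -0.11 to 0.61), which passed with quantile normalization alone (0.40, adjusted p = 0.0438). Gimap9 had 118, 111, 145 and 108 FPKM, and its difference of 0.0047 (95% interval -0.30 to 0.31) was the smallest of the cluster. Replicate 3 was the highest of the 4 libraries for 8 of 8 members, and Bcl11bm/m replicate 1 the highest of its group for 7 of 8. Without cKO replicate 3 the differences of Gimap7 and Gimap9 turned to -0.018 and -0.087.

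**Figure D2:**
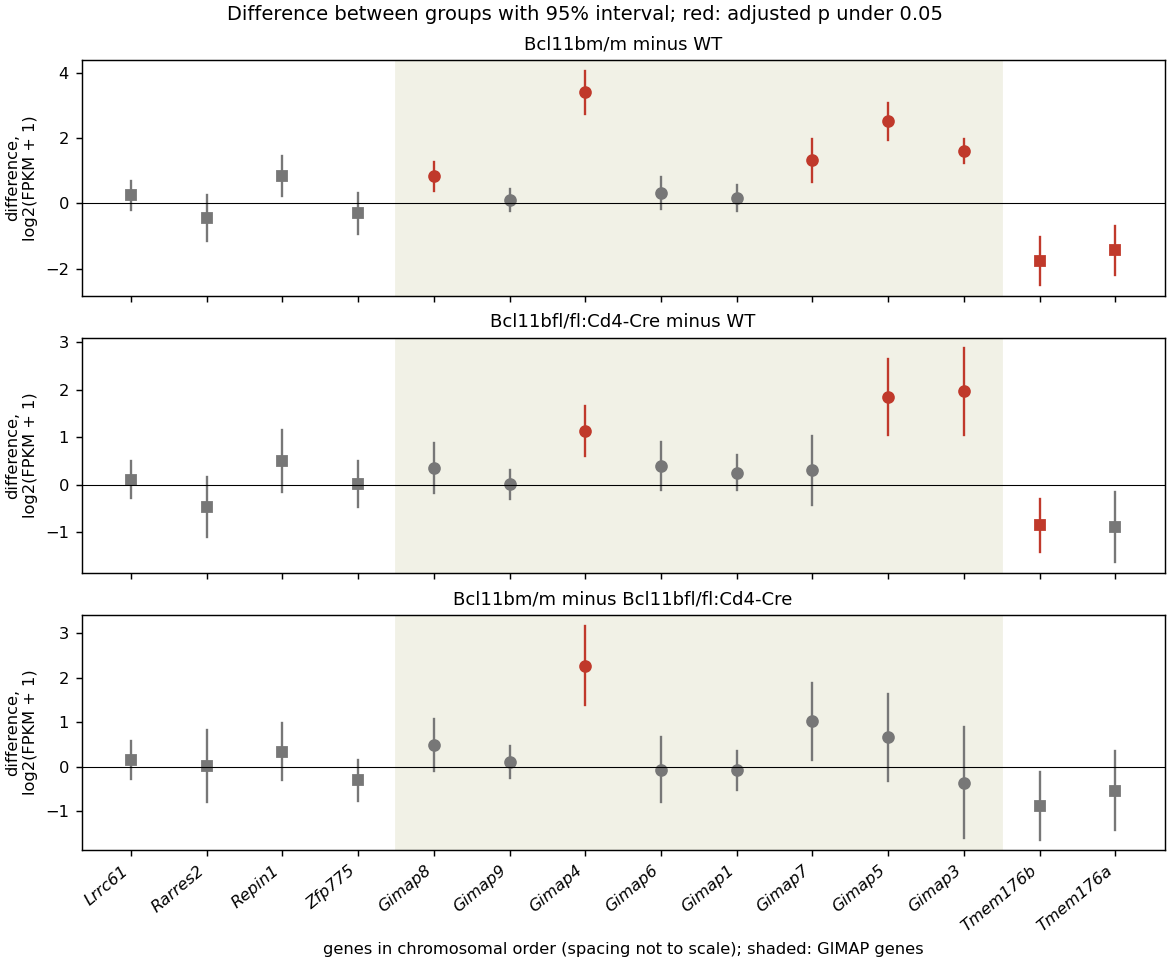
Difference of mean log2(FPKM + 1) (y axis) with its 95% interval for GIMAP genes (circles, shaded) and neighbouring genes (squares) in chromosomal order, for each of the 3 comparisons, with called genes in red. Called and uncalled members are interspersed along the chromosome, and Tmem176b and Tmem176a, on the side of Gimap3, lie below 0 against WT.

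The mutants were also compared with each other. Gimap4 was higher in Bcl11bm/m than in cKO thymocytes, by 2.28 on the log2 scale (standard error 0.38, adjusted p = 0.0159, limma), with no overlap of libraries. It was the 1 member of 8 called, and none was called lower, against 7.63% of features called higher, 2.6% called lower and 18.9% with all Bcl11bm/m libraries above all cKO libraries. For the cluster as a whole, 1 of 8 is close to the share called higher. Without Bcl11bm/m replicate 2 (adjusted p = 0.0555) or a filter on low values (adjusted p = 0.0570) Gimap4 did not pass. The exact permutation test gave 0.0571, the smallest p for 3 against 4 libraries, so that test cannot reach 0.05. Gimap7 differed by 1.02 (95% interval 0.16 to 1.87, adjusted p = 0.121), and it passed when cKO replicate 3 was left out (1.33, adjusted p = 0.0222). For Gimap5 the difference was 0.66 (95% interval -0.33 to 1.64), for Gimap8 0.48 (-0.10 to 1.06) and for Gimap3 -0.36 (-1.62 to 0.90), with overlapping libraries. Without cKO replicate 3 the direction of Gimap3 turned, its fold of mean FPKM going from 0.586 to 1.14. Gimap1, Gimap6 and Gimap9 differed by -0.09, -0.08 and 0.10. Depth and the kind of Bcl11b mutation differ between these groups, the age of the cKO mice is unknown, and these cannot be told apart here.

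The members thus took different places beside each other in the 3 genotypes. Gimap4 was the lowest member in WT and also in cKO thymocytes (3.90 ± 1.73 FPKM, n = 4), but in Bcl11bm/m thymocytes (23.5 ± 12.1 FPKM, n = 3) it stood above Gimap7 (14.5 ± 4.38 FPKM) and Gimap3 (6.70 ± 1.31 FPKM) in 3 of 3 libraries. Gimap5 passed Gimap8 in 3 of 3 Bcl11bm/m libraries and in 2 of 4 cKO libraries, and in no WT library. The ratio of Gimap4 to Gimap5, chosen after the values were seen and therefore given without a test, was 0.0975 to 0.196 in WT, 0.0774 to 0.154 in cKO and 0.302 to 0.562 in Bcl11bm/m libraries. The share of Gimap3, Gimap4 and Gimap5 in the cluster's summed FPKM was 12.6 to 13.9% in Bcl11bm/m and 5.34 to 12.01% in cKO libraries. Among the mutant libraries, Bcl11bm/m replicate 1 had the highest value of its group for 7 of 8 members and cKO replicate 3 for 8 of 8. In WT, replicate 4 was highest for 5 members and lowest for 0, and replicate 5 was lowest for 4 and highest for 0. WT replicate 1 was lowest for 4 members but highest for Gimap8. With group means removed, 28 of 28 pairs of members had r above 0 (0.386 to 0.909). The share of such pairs over all features was not taken, so this count is a description of the libraries named here.

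**Figure D3:**
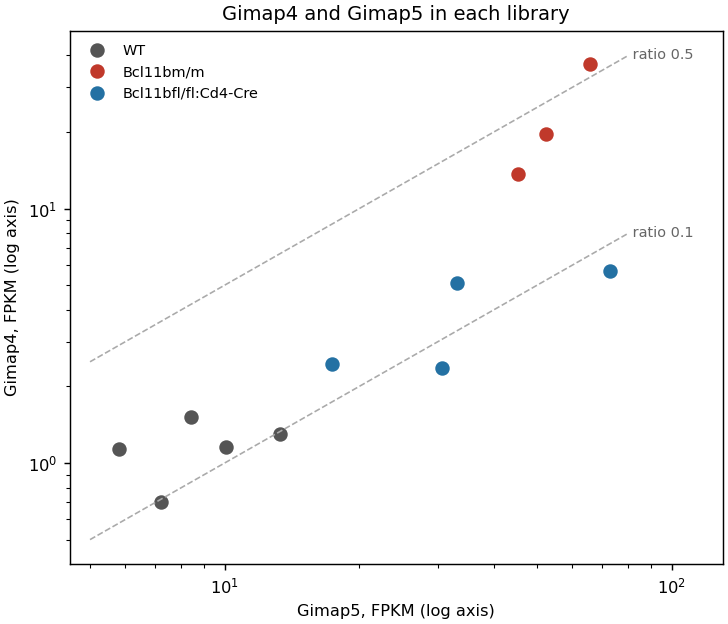
Gimap4 FPKM (y axis, log) against Gimap5 FPKM (x axis, log) with 1 point per library, and dashed lines at ratios of 0.1 and 0.5. cKO libraries extend the WT libraries at a ratio of 0.0774 to 0.154, and Bcl11bm/m libraries lie above them at 0.302 to 0.562.

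Of the genes next to the cluster, those called were lower. Of 10 protein-coding neighbours (5 on each side), 9 were listed and 6 were tested. Tmem176b, a membrane protein gene whose nearest GIMAP neighbour is Gimap3, fell in Bcl11bm/m thymocytes from 10.3 ± 3.23 to 2.46 ± 1.55 FPKM, or 1.57 without Bcl11bm/m replicate 1 (log2 difference -1.75, standard error 0.32, adjusted p = 0.00767, limma). It also fell in cKO thymocytes, to 5.20 ± 1.76 FPKM (-0.86, standard error 0.25, adjusted p = 0.0443). The adjacent Tmem176a fell in Bcl11bm/m thymocytes from 6.36 ± 2.33 to 1.69 ± 0.862 FPKM (-1.44, standard error 0.33, adjusted p = 0.0192), and its difference in cKO thymocytes was -0.89 (adjusted p = 0.102). On the side of Gimap8, Lrrc61, Rarres2, Repin1 and Zfp775 were not called in any of the 3 comparisons, with log2 differences between -0.47 and 0.83. The highest of these was that of Repin1 in Bcl11bm/m (0.83, adjusted p = 0.0721), as large as that of the called member Gimap8 (0.83), and it was called higher without WT replicate 3, its highest WT library (1.04, adjusted p = 0.00518), and without short RNA features (adjusted p = 0.0471). In cKO thymocytes Repin1 differed by 0.495 (adjusted p = 0.284). Without a filter on low values the Tmem176a call in Bcl11bm/m (adjusted p = 0.0699) and the Tmem176b call in cKO (adjusted p = 0.134) were lost, the latter also in a single fit of the 3 groups (adjusted p = 0.0521). The Tmem176b call in cKO was lost as well when any of 7 of the 9 libraries was left out (WT replicates 2 to 5 and cKO replicates 1, 3 and 4, adjusted p = 0.0766 to 0.133, limma), and that of Tmem176a in Bcl11bm/m without Bcl11bm/m replicate 2 (adjusted p = 0.0668) or 3 (adjusted p = 0.0746). The Tmem176b call in Bcl11bm/m held with each library left out (largest adjusted p = 0.0419). Tmem176a in cKO was called with library weights (adjusted p = 0.0289) and without WT replicate 1 (adjusted p = 0.0324), and Tmem176b was called lower in Bcl11bm/m than in cKO with library weights (adjusted p = 0.02) and without Bcl11bm/m replicate 1 (adjusted p = 0.0481).

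Genes that mark thymocyte maturation moved in the same libraries. Of 21 post-selection genes, 13 were called higher and 3 lower in Bcl11bm/m thymocytes (median difference 1.302), against 9.92% and 7.39% of all features. Il7r, the receptor of a survival cytokine, had 0.0475 ± 0.0404 FPKM in WT and 17.1 ± 7.51 FPKM in Bcl11bm/m (log2 difference 4.04). At 0 to 0.0885 FPKM in WT it passed the filter only through the mutants, so its call is a description. Klf2, a factor of thymic exit, rose from 1.82 ± 0.636 to 17.9 ± 12.2 FPKM (2.59, adjusted p = 0.00216, limma), or to 10.8 FPKM without Bcl11bm/m replicate 1. Itga4 and Foxo1 rose by 1.503 and 1.31. The 3 called lower were Ccr9 (-1.75), Cd5 (from 103 to 37.3 FPKM, -1.37) and Cd6 (from 112 to 55.3 FPKM, -0.97). In cKO thymocytes 5 of the 21 were called higher and 3 lower (median 0.39), against 4.65% and 9.86% of all features. Among them were Itgb7 (2.95), Klf2 (2.23), Il7r (2.01) and S1pr1 (1.27) higher, and Cd28 (-1.08), Ccr9 (-1.43) and Cd69 (from 23.5 to 8.75 FPKM, -1.46) lower. S1pr1 (0 to 0.0572 FPKM in WT), Slfn1 and Samhd1 (means of 0.548 and 0.567 FPKM in WT) also passed the filter only through the mutants. Counts that hold any of these or Il7r are a description. Between the mutants, Bcl2 (1.198) and Cd28 (1.002) were called higher in Bcl11bm/m, 2 of 21, with none called lower. Over all features 7.63% were called higher there, so 2 of 21 is close to that share. Both calls were lost without cKO replicate 1 or any of the 3 Bcl11bm/m libraries.
Of 11 genes typical of pre-selection DP cells, 6 were called lower in Bcl11bm/m thymocytes and none higher (median -0.57), against 7.39% of all features called lower. Those with the smallest adjusted p were Ptcra (-2.22), Cd24a (-1.15), Cd4 (-0.99), Rag2 (-0.87) and Arpp21 (-0.52). In cKO thymocytes Cd24a (-1.15) and Themis (-0.47) were called lower, 2 of 11 (median -0.47), against 9.86% of all features called lower. Themis was higher in Bcl11bm/m than in cKO (0.78). The calls of Rag2 and Arpp21 were lost without Bcl11bm/m replicate 2, and that of Themis against WT without WT replicate 2, 3 or 5 or cKO replicate 2, 3 or 4.

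The summed level of 6 mature T cell markers (Ccr7, S1pr1, Klf2, Il7r, Ms4a4b and Itgb7) was 10.7 to 38.3 FPKM in WT, 166 to 245 in Bcl11bm/m and 66.2 to 234 in cKO libraries. Of the 6, 5 and 4 were called higher in the respective mutant, against 9.92% and 4.65% of all features. S1pr1 and Il7r passed the filter only through the mutants, so these counts are a description. Itgb7 was the largest part of the sum in both mutants, with 4.32 to 28.4 FPKM in WT, 121 to 141 in Bcl11bm/m and 51.1 to 160 in cKO libraries. The 2 libraries in which most members peaked, Bcl11bm/m replicate 1 and cKO replicate 3, also had the highest sums of these markers in their groups, and likewise the highest sums of the NK cell markers (437 and 190 FPKM) and myeloid markers (86.1 and 44.4 FPKM). Bcl11bm/m replicate 1 was also highest of its group for B cell markers (39.0 against 9.25 and 10.02 FPKM) and erythroid markers (29.8 against 14.5 and 10.6 FPKM), whereas cKO replicate 3 had the lowest B cell sum of its group (12.7 FPKM). The sum of 7 DP thymocyte markers was lowest of the cKO libraries in replicate 3 (3170.4 FPKM) but highest of the Bcl11bm/m libraries in replicate 1 (3833 FPKM). The sort for CD24hiTCRβlo cells is meant to exclude mature cells, and the part of mature cells in the GIMAP values was not tested.
NK cell markers moved as well, with a sum over 9 genes of 18.9 to 72.9 FPKM in WT, 229 to 437 in Bcl11bm/m and 66.6 to 190 in cKO libraries, most of it from Gzma (276 ± 115 FPKM in Bcl11bm/m and 36.3 ± 20.5 FPKM in WT). Of the 9 NK markers 5 were not tested. The filter takes the mean over all libraries, so a marker such as Klrb1c passed it only through the groups in which it is high, and the counts are a description. Gzma, Tyrobp, Prf1 and Klrb1c were called higher in Bcl11bm/m, and in cKO Gzma was called higher and Prf1 lower. Klrb1c, which encodes the NK1.1 antigen, had 0 to 0.6045 FPKM in WT, 0.301, 6.94 and 5.41 in Bcl11bm/m replicates 1 to 3 (adjusted p = 0.0494, limma) and 5.14, 0.2995, 21.8 and 2.11 in cKO replicates 1 to 4 (adjusted p = 0.0589), so that it was highest in cKO replicate 3 but lowest of its group in Bcl11bm/m replicate 1. There Gzma alone had 409 of the 437 FPKM. Nkg7 had 0 to 0.411, 0 to 1.199 and 0.121 to 2.60 FPKM in WT, Bcl11bm/m and cKO libraries and was not tested. Ncr1 was at 0 in all WT and cKO libraries and at most 0.192 FPKM in Bcl11bm/m, and Gzmb did not exceed 0.0358 FPKM in any library. The sum of 8 myeloid markers was 7.32 to 13.9 FPKM in WT, 19.0 to 86.1 in Bcl11bm/m and 2.79 to 44.4 in cKO libraries. Of the 5 tested, 2 were called higher in Bcl11bm/m (Fcer1g and Mpeg1) and 2 lower in cKO, where Lyz2 fell from 5.38 to 0.544 FPKM (0.237 without cKO replicate 1) and Mpeg1 from 0.711 to 0.0971 FPKM, while Fcer1g made up 42.2 of the 44.4 FPKM of cKO replicate 3. Sums of 8 B cell markers were 14.4 to 22.5, 9.25 to 39.0 and 12.7 to 39.2 FPKM in the same order, with Cd79b the largest part in WT (16.9 ± 3.50 FPKM). Of the 4 tested, none was called in Bcl11bm/m (limma, 2 at an unadjusted p under 0.05) and 2 were called higher in cKO, Cd79a (from 0.383 to 1.998 FPKM) and Blk (from 0.0921 to 3.68 FPKM, or 1.602 without cKO replicate 1). Cd79a, Blk and, among the myeloid markers, Mpeg1 averaged under 1 FPKM in WT and passed the filter only through mutant libraries. The counts that hold them are a description. Sums of 7 stromal markers were 3.55 to 5.41, 1.87 to 3.22 and 1.62 to 2.72 FPKM, and Epcam, 1 of the 2 tested, was called lower in both mutants (3.04 FPKM in WT, 0.303 in Bcl11bm/m and 0.786 in cKO). Of 8 endothelial markers Pecam1, which T cells also express, was the 1 that passed the filter and was called higher in both mutants, while Cdh5 did not exceed 0.0966 FPKM. Sums of 6 erythroid markers were 2.37 to 34.6, 10.6 to 29.8 and 0.85 to 5.07 FPKM. Between the mutants, where Gimap4 was called, 2 of 4 NK markers (Prf1 and Tyrobp), 3 of 5 myeloid markers (Lyz2, Mpeg1 and Csf3r) and 2 of 3 erythroid markers were called higher in Bcl11bm/m and none lower. Over all features 7.63% were called higher there. The part of NK, myeloid, B, erythroid and stromal cells in the GIMAP values was not tested.

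**Figure D4:**
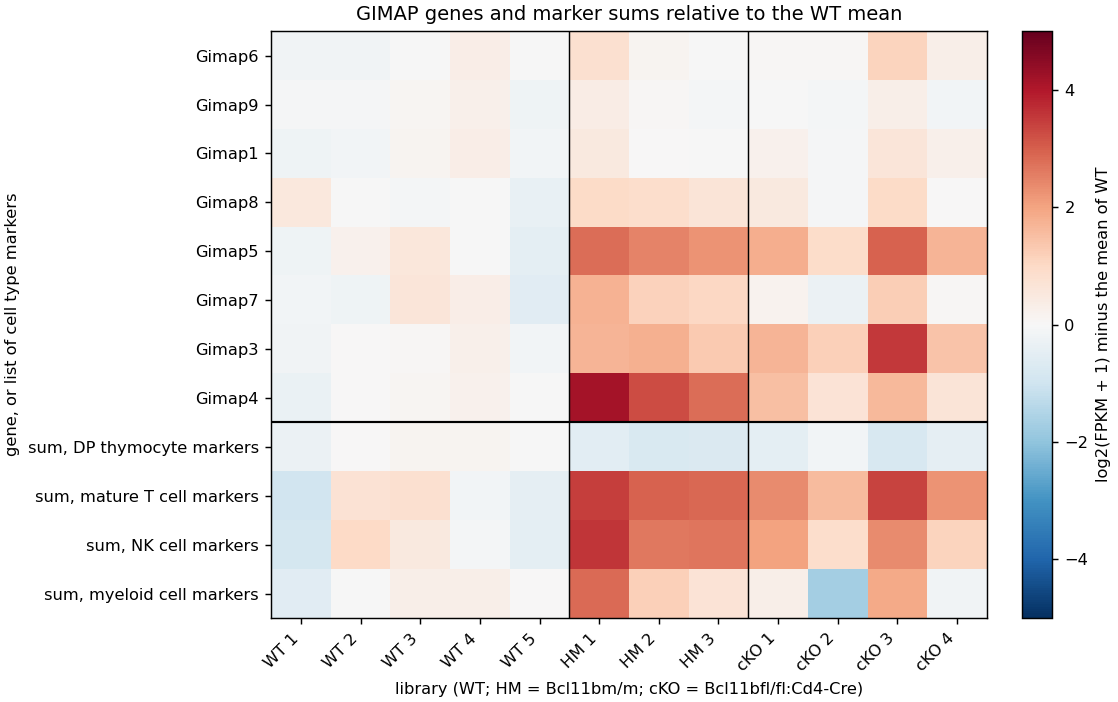
Difference of log2(FPKM + 1) from the WT mean (colour) for each GIMAP gene and for the summed FPKM of 4 marker lists (rows) in the 12 libraries (columns, with HM for Bcl11bm/m). Gimap4, Gimap5 and Gimap3 and the mature T cell sum are raised in Bcl11bm/m, and replicate 3 is the strongest of the cKO libraries for the members.

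Some GIMAP proteins are known to act with BCL2-family proteins, and 8 genes of that family were examined. Bcl2, which blocks apoptosis, was the 1 of 8 called in Bcl11bm/m thymocytes, at 5.20 ± 0.948 against 2.39 ± 0.611 FPKM in WT (log2 difference 0.88, standard error 0.18, adjusted p = 0.0116, limma). Over all features 9.92% were called higher, so 1 of 8 is close to that share. None of the 8 was called in cKO thymocytes by limma, with 1 at an unadjusted p under 0.05, and Bcl2 was higher in Bcl11bm/m than in cKO (1.198, adjusted p = 0.0215, with the losses named for it among the maturation genes).
Other GTPases of immunity, the interferon-inducible Gbp, Irg and Mx genes, were compared as a second GTPase group. Of 18 listed, 15 were tested, and 7 were called higher and none lower in Bcl11bm/m thymocytes (median difference 0.95), against 9.92% of all features called higher. Among them were Tgtp2 (2.44), Iigp1 (1.57), Gbp7 (1.53), Gbp5 (1.16) and Gbp3 (1.12). Iigp1, at most 0.738 FPKM in WT and 0.746 in cKO libraries, passed the filter only through Bcl11bm/m, so the count that holds it is a description. None was called in cKO thymocytes (limma, 4 at an unadjusted p under 0.05, median 0.06), where 4.65% of all features were called higher, so that 0 of 15 is close to that share. Between the mutants Gbp9 (1.199, adjusted p = 0.00781) and Gbp7 (1.14, adjusted p = 0.0130) were higher in Bcl11bm/m, 2 of 15, against 7.63% of all features called higher.
The genes outside the cluster whose pattern over the 12 libraries came closest to the mean standardized level of the 8 members were Lace1 (Pearson's r = 0.944, Spearman's rho = 0.951), Slfn1 (0.942 and 0.867), Irf1 (0.940 and 0.923), Cdc42ep3 (0.937 and 0.923) and Fcer1g (0.936 and 0.867). With the group means removed their r lay between 0.863 and 0.921. These values were the highest of all features tested and describe the 12 libraries alone. Slfn1 averaged 0.548 FPKM in WT and passed the filter only through the mutants.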

How the data were processed

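RNA-seq of 12 libraries was used (5 WT, 3 Bcl11bm/m, 4 Bcl11bfl/fl:Cd4-Cre, called cKO). The authors mapped reads with TopHat2 and deposited FPKM per gene from Cufflinks, listed in the submitters' processing notes as versions 2.8.0 and 2.1.1 on mm9, with no further scaling stated. The study's methods name strand-specific libraries. The extract protocol entered for each sample is instead one for double-negative (DN) NKT cells and a low-input kit. This leaves the chemistry and the use of strand uncertain. For the sorted cells, the Cd4 and Cd8a levels given above are those of DP cells. FPKM scales by depth, so a few abundant RNAs can shift all other values.

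Values were taken as log2(FPKM + 1), which understates changes of low genes. Features that averaged 1 FPKM or more were fitted in limma 3.58.1 (R 4.3.3, lmFit, eBayes with a trend, the 2 groups compared, two-sided, Benjamini-Hochberg over all features tested), a script tested on simulated data. Members were also tested by exact permutation. Python 3.11.15, pandas 2.3.3, numpy 2.4.6, Biopython 1.88 and matplotlib 3.10.9 did the rest. Depth came from FPKM steps in 6379 genes with a single coding transcript, with 200 bases taken off each transcript length. Fragment numbers cover counting error only.

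The genes named were the 8 members, 5 protein-coding neighbours on each side, Bcl11b and Zbtb7b, up to 5 genes per list with the smallest adjusted p under 0.05 in each comparison, and the 5 genes most like the cluster. Other list genes and markers were named after their values were seen. The members and lists were chosen with earlier results of these data known. Alternatives were another pseudocount, other filters, 2 scalings, a single fit of 3 groups, a replicate block, library weights, robust variance, omission of short RNAs and leaving out each library. No protein sequence was used here. Some genes of the fixed lists are not reported here and were left out of their counts and sums.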

Additional observations from a re-analysis of the deposited data

Results flagged for a closer look

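Among 84 groups of WT or cKO libraries examined for the named genes, 11 held a library that stood apart by Dixon's criterion, where chance gives about 1 in 20 groups (4.2). cKO replicate 3 stood apart above its group for Gimap6 (436 FPKM) and Gimap3 (28.1 FPKM), and also for Klf2 (34.8 FPKM), Foxo1 (32.8 FPKM), S1pr1 (3.76 FPKM) and Slfn1 (5.48 FPKM). WT replicate 4 stood apart for Gimap6 (253 FPKM, the highest WT value) and Itga4 (17.7 FPKM, the lowest). The others were Repin1 (6.00 FPKM) and Zbtb7b (0.216 FPKM) in WT replicate 3 and Iigp1 (0.738 FPKM) in WT replicate 2. Gimap4 differed between the mutants in the direct comparison, by 2.28 on the log2(FPKM + 1) scale (Bcl11bm/m minus cKO, adjusted p = 0.0159, limma). All 3 Bcl11bm/m libraries lay above all 4 cKO libraries, which 18.9% of all features had, and 7.63% were called higher. The Gimap4 call was lost without Bcl11bm/m replicate 2 or without a filter on low values, and the exact permutation test cannot reach 0.05 there.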

How the results depend on the processing

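Gimap3, Gimap4 and Gimap5 stayed higher than WT in both mutants under each alternative and each left-out library. In Bcl11bm/m they also passed under each, the largest adjusted p being 0.0473 with the replicate block. The members called were 5 (Bcl11bm/m against WT), 3 (cKO against WT) and 1 (between the mutants). Without a filter on low values they were 3, 0 and 0, with the same fold changes and 23234 features tested. The replicate numbers did not pair the libraries (r of same-numbered libraries -0.211 to 0.152, and 0 of 6, 4 of 8 and 0 of 6 libraries correlated best with their own number). With the replicate block the members called were 3, 1 and 0, all features called fell from 1866, 1564 and 1102 to 293, 445 and 46, and Gimap9 in cKO against WT was at -0.052. With the block the Tmem176b (adjusted p = 0.153) and Tmem176a (0.2375) calls in Bcl11bm/m and the Tmem176b call in cKO (0.0752) were lost. When each library was left out in turn, the members called were 3 to 5, 3 and 0 to 2, and all features called were 1021 to 2349, 700 to 2678 and 313 to 1121. All features called were 1189 (Bcl11bm/m against WT) and 656 (between mutants) at a mean of at least 5 FPKM, 796 without a filter (cKO against WT), and 3604, 3176 and 2173 with library weights.

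Signs turned for values that were not called. With median-ratio scaling Gimap9 was at -0.019 and Rarres2 at -0.073 between the mutants, and with quantile normalization Rarres2 was at -0.13 there and Zfp775 at -0.021 in cKO against WT. Leaving out a library gave ranges of -0.0057 to 0.26 for Gimap1 and -0.033 to 0.21 for Gimap9 in Bcl11bm/m against WT, and -0.018 to 0.50 for Gimap7 and -0.087 to 0.066 for Gimap9 in cKO against WT (Zfp775 there -0.14 to 0.12). Between the mutants they were -0.26 to 0.026 for Gimap1, -0.62 to 0.16 for Gimap3, -0.32 to 0.17 for Gimap6, -0.037 to 0.20 for Gimap9, -0.011 to 0.23 for Lrrc61 and -0.29 to 0.19 for Rarres2. Between the mutants, the median over all features went from 0.09 to -0.01 with median-ratio scaling, and the calls higher and lower from 822 and 280 to 565 and 531. In cKO against WT the median went from -0.09 to 0.0045. Leaving the replicate block aside, among the other named genes Bcl11b, Iigp1 and Gbp5 (Bcl11bm/m), S1pr1 and Themis (cKO) and Bcl2 and Cd28 (between the mutants) did not pass without a filter, Themis in cKO under neither scaling, and Arpp21 in Bcl11bm/m not in the single fit of 3 groups, in which Bcl11b in cKO passed, as it did with library weights. The causes were not tested. Low fragment numbers limit Gimap4 and Gimap3 in WT.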
